A study of Mus musculus with 6 samples.

Results

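The genes described here encode the enzymes that hydroxylate cholesterol or esterify it, together with the enzymes that carry hydroxylated cholesterol onward and the reductases that supply electrons to the hydroxylases. They are Cyp46a1, Cyp27a1, Cyp11a1, Ch25h, Cyp7b1, Cyp39a1, Hsd3b7, Soat1, Por and Fdxr, taken by gene symbol: 10 of the 19401 genes listed in the data, by a rule that uses no measured value. RNAseq was carried out on 6 libraries from 5XFAD mice, a model of Alzheimer's disease that is hemizygous for mutant human amyloid precursor protein and presenilin 1 transgenes on the B6SJL background, so both groups carried the transgenes. The 3 control libraries came from 5XFAD mice that received no drug, and the 3 EFV libraries came from 5XFAD mice given efavirenz (EFV) in drinking water from 3 to 9 months of age at a labelled dose of 0.08 mg/kg of body weight. Each library was a pool of retina with retinal pigment epithelium (RPE) from 5 to 6 mice of 9 months, which the study describes as male. The p-values therefore measure the spread between pools, and there was no group without the transgenes.

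Cholesterol cannot be broken down by cells, and it leaves neural tissue mainly after a hydroxyl group has been added. CYP46A1, the hydroxylase that neurons use, is the major route of cholesterol removal from the brain, and EFV, an antiretroviral drug, binds this enzyme and at low doses raises its activity. CYP27A1 and CYP11A1 hydroxylate or cleave the cholesterol side chain in mitochondria, where FDXR starts the chain that brings them electrons. CYP46A1, CYP7B1 and CYP39A1 sit in the endoplasmic reticulum and take electrons from POR, whereas CH25H is a di-iron enzyme and not a P450. CYP7B1, CYP39A1 and HSD3B7 carry the resulting oxysterols toward bile acids, and SOAT1 stores cholesterol as esters.

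Cyp46a1 and Ch25h stand near the upper and lower ends of the hydroxylase levels given below, and the sequences before their start sites are shown to let a reader see how they differ in composition. Of the 10 genes, 8 had RefSeq promoters for GRCm38.p6, and Cyp7b1 and Cyp39a1 had none in the table used. The stretch shown runs 5′ to 3′ on the strand of the gene and ends 51 bases before the start site that the promoter table uses. For Cyp46a1, Cyp27a1, Por, Fdxr and 1 of the 2 promoters of Cyp11a1, this start lies inside the gene span given below, downstream of its first base. Capitals mark GGGCGG on either strand (the GC box) in Cyp46a1 and TATAAA in Ch25h.
Cyp46a1, chr12:108334066-108334265, plus strand: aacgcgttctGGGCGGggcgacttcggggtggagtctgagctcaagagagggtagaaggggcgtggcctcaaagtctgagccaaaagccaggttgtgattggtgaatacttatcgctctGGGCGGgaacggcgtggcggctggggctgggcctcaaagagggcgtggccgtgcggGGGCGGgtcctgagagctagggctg
Ch25h, chr19:34475199-34475398, minus strand: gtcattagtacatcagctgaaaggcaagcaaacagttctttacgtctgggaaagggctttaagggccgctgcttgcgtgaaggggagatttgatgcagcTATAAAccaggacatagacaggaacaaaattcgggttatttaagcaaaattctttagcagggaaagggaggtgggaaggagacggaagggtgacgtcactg

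Over the full 250 bases before that start, the Cyp46a1 promoter had a GC content of 67.6%, 23 CpG dinucleotides and 4 GC boxes, with no TATAAA. Fewer CpG dinucleotides were found in 86.7% of all 32851 promoters, whose median was 6. At least 1 GC box was present in 32.7% of all promoters, and 4 or more in 4.09%. The Ch25h promoter had a GC content of 50.4%, 8 CpG dinucleotides, no GC box and 1 TATAAA, a motif found in 12.4% of all promoters. Por had 4 GC boxes and 21 CpG dinucleotides, Fdxr had 3 and 13, Cyp27a1 had 1 and 7, and Hsd3b7 had 1 and 1. Soat1 had no GC box and 12 CpG dinucleotides, and the 2 Cyp11a1 promoters had no GC box and 4 and 1 CpG dinucleotides. These matches describe the letters of the promoters only.

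The 6 libraries held 23455167 to 24590278 counts. The 4 cone markers summed to 399.1 to 472.55 FPKM (fragment counts divided by the gene length and the library total, a level per length) and the 4 Müller cell markers to 1054 to 1114 FPKM over all libraries, so that both retinal cell types were present in each pool. The 5 lens markers summed to 538.0 FPKM in control 3 and to 7.23 to 24.6 FPKM in the other 5 libraries, and the 5 RPE markers summed to 21.2 FPKM in control 2 and to 41.2 to 51.7 FPKM elsewhere. The ranges of the groups overlapped for the cone, Müller cell, retinal ganglion cell, microglial and endothelial marker sums, and none of the markers was at 0 in every library. Control 2 and control 3 thus stood apart in RPE and lens markers, and the differences of the 9 genes tested are also given without them, as a log2 fold change. Of the RPE markers, Rpe65 was at 4.65, 2.35 and 5.69 FPKM in controls and 6.05, 6.59 and 6.69 FPKM in EFV libraries. Every EFV library was above every control library for Rpe65, while Lrat, Best1, Ttr and Rgr overlapped between the groups. On scaled counts, 3.95% of all genes tested were apart in this direction. In pooled tissue, fewer cells of a type and less RNA per cell cannot be told apart.

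Before the levels are read, the counting of Hsd3b7 needs a description, because the deposited values do not stand for this gene alone. Hsd3b7 (Entrez 101502, chr7:127800609-127803802, plus strand, mm10) encodes the dehydrogenase that acts on sterols already hydroxylated at the ring. Its deposited length was 4773 bases in all 6 libraries, longer than the 3194 bases that the whole gene spans with its introns and 2.61 times the 1828 bases of the GENCODE transcript that carries its RefSeq identifiers. The deposited transcripts of Hsd3b7 are 2 RefSeq transcripts and 1 transcript assembled by the authors (prefix BGI_novel), and GENCODE has a read-through gene, Gm49388 (chr7:127785608-127803802), that runs from Setd1a into Hsd3b7. Setd1a, which encodes a histone methyltransferase, lies directly upstream on the same strand.

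The expected counts of Hsd3b7 were not whole numbers in any library, and together with those of Setd1a they were whole in all 6, within 0.011 counts. Reads were thus divided between both genes by the estimation. The sums were 4846, 4907 and 4877 counts in controls 1 to 3 and 4652, 5002 and 5038 in EFV 1 to 3. Hsd3b7 received 59.7%, 52.4% and 51.3% of them in the controls and 56.7%, 53.3% and 55.5% in the EFV libraries. The sums overlapped between the groups, and so did the shares, which moved by more within the control group than the group means differed.

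**Figure D1:**
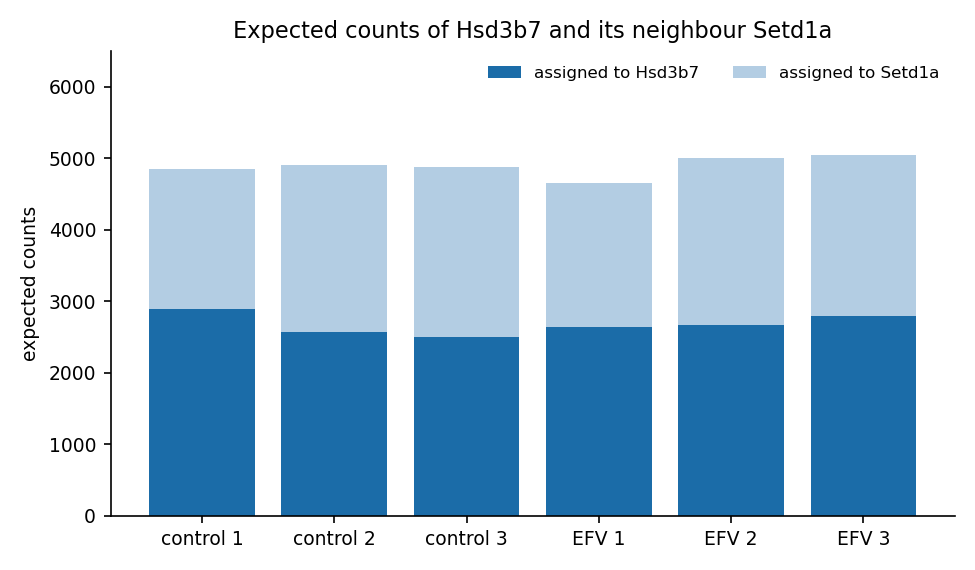
Expected counts (y axis) assigned to Hsd3b7 (dark) and to its upstream neighbour Setd1a (light) in each of the 6 libraries (x axis), with no error bars since each bar is 1 library. The stacked height runs from 4652 to 5038 counts, and the share assigned to Hsd3b7 from 51.3% to 59.7%.

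Deposited lengths differed from those of the RefSeq-matched GENCODE transcripts (the longest one where there were several) for other genes of the group as well. Fdxr (Entrez 14149, chr11:115268024-115277101, minus strand) had a length of 4790 to 5474 bases in the 6 libraries, 2.46 to 2.81 times the 1948 bases of its matched transcript. Cyp11a1 had 2790 bases, 1.32 times the 2120 bases of its matched transcript, although GENCODE also has a transcript of 3439 bases for this gene, and Soat1 had 4785 bases, 0.572 times the 8371 bases of its matched transcript. Cyp46a1, Cyp27a1, Cyp7b1, Cyp39a1, Ch25h and Por were within 0.960 to 1.02 times their matched lengths. A transcript assembled by the authors was listed for Cyp39a1, Hsd3b7, Por and Fdxr, and for 29.6% of all genes with an Entrez identifier. A deposited length greater than the gene's own span in every library was found for 1.07% of 17676 genes, and of the 10 genes described here only for Hsd3b7.

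At the deposited lengths, Por, the electron donor of the microsomal P450s, had the highest level of the 10 genes. Cyp46a1 had the highest level among the hydroxylases. At the matched transcript lengths Hsd3b7 stood above Por, as given below. Over all 6 libraries the mean levels as deposited were 31.8 FPKM for Por, 23.4 for Hsd3b7, 7.14 for Cyp46a1, 6.99 for Fdxr, 3.63 for Cyp27a1, 2.51 for Soat1, 1.81 for Cyp7b1, 1.15 for Cyp39a1, 0.168 for Ch25h and 0.153 for Cyp11a1. Among 17705 genes with an Entrez identifier, 88.1% had a lower mean FPKM than Por, 55.4% a lower one than Cyp46a1, 43.4% a lower one than Cyp27a1 and 17.8% a lower one than Cyp11a1. Neighbours in this order differed in the same direction in all 6 libraries for 7 of 9 pairs (two-sided exact sign-flip permutation test, p = 0.0313, the smallest that 6 libraries can give, and 0.0402 after BH adjustment over 9 pairs). The order came from the mean levels in these same libraries, so the p-values give no independent support for it. They cover only the spread between libraries at the deposited lengths. Cyp46a1 and Fdxr did not differ beyond their spread, with Cyp46a1 higher in 4 of 6 libraries (exact permutation p = 0.25, adjusted p = 0.281). Ch25h and Cyp11a1 did not either, with Ch25h higher in 3 of 6 libraries (exact permutation p = 0.875).

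**Figure D2:**
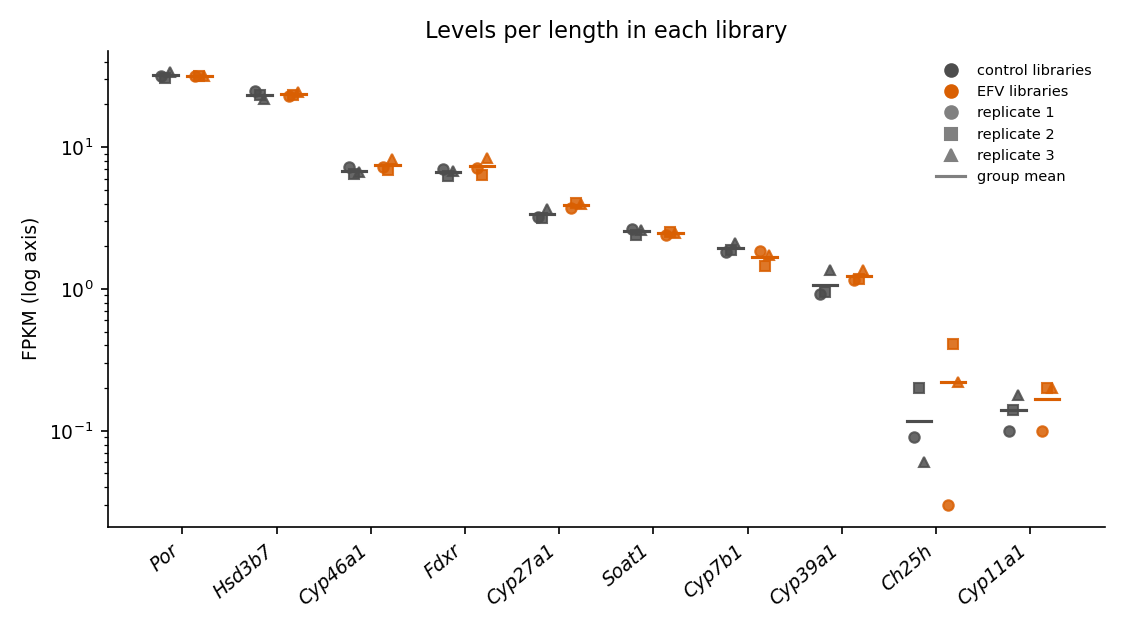
Level of each gene in FPKM (y axis, log scale) in the 3 control (grey) and 3 EFV (orange) libraries, with 1 point per library, a symbol per replicate number and a line at each group mean. The genes run from Por at 31.8 FPKM on average to Ch25h and Cyp11a1 at 0.168 and 0.153 FPKM. The points spread most for Ch25h (0.03 to 0.41 FPKM) and next for Cyp11a1 (0.10 to 0.20 FPKM), and those of the other genes lie closer together.

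The order depended on the length by which a gene was divided. At the length of the RefSeq-matched transcript, the mean level was 61.1 for Hsd3b7, 30.6 for Por and 18.3 for Fdxr, on the same scale as FPKM, so that Hsd3b7 stood above Por and Fdxr above Cyp46a1 (7.23). Soat1 was at 1.44 there and stood below Cyp7b1 (1.81). In this order 8 of 9 neighbouring pairs differed in the same direction in all 6 libraries, and Ch25h (0.166) and Cyp11a1 (0.202) were the pair that did not. Only the length was changed here, and the counts stayed as assigned to the deposited transcripts. For Hsd3b7, Fdxr and Soat1, counts and length then refer to different transcripts, so their places in this order are not established. The level of Hsd3b7 also rests on how its reads were divided from those of Setd1a, whichever length is used. Cyp46a1 and Cyp27a1 changed little with the length, to 7.23 and 3.71.

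Among the 4 enzymes that act on the cholesterol side chain, Cyp46a1 made up the greater part of the RNA per length in every library. Its share of their summed FPKM was 65.4% ± 2.42 in control retina and 63.4% ± 3.09 in EFV-treated retina (SD of 3 libraries each). Cyp27a1 followed with 32.1% ± 2.15 and 33.3% ± 1.63, whereas Cyp11a1 had 1.34% ± 0.383 and 1.41% ± 0.442 and Ch25h had 1.14% ± 0.760 and 1.86% ± 1.64. The two-sided exact permutation p of the difference between groups was 0.6 for Cyp46a1, 0.5 for Cyp27a1, 0.8 for Cyp11a1 and 0.7 for Ch25h, where 3 libraries against 3 cannot go below 0.1. The ratio of Cyp46a1 to Cyp27a1 was 2.05 ± 0.208 in control and 1.91 ± 0.174 in EFV-treated retina (SD, n = 3; exact permutation p = 0.5), and it ran from 1.71 to 2.26 over the 6 libraries.

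**Figure D3:**
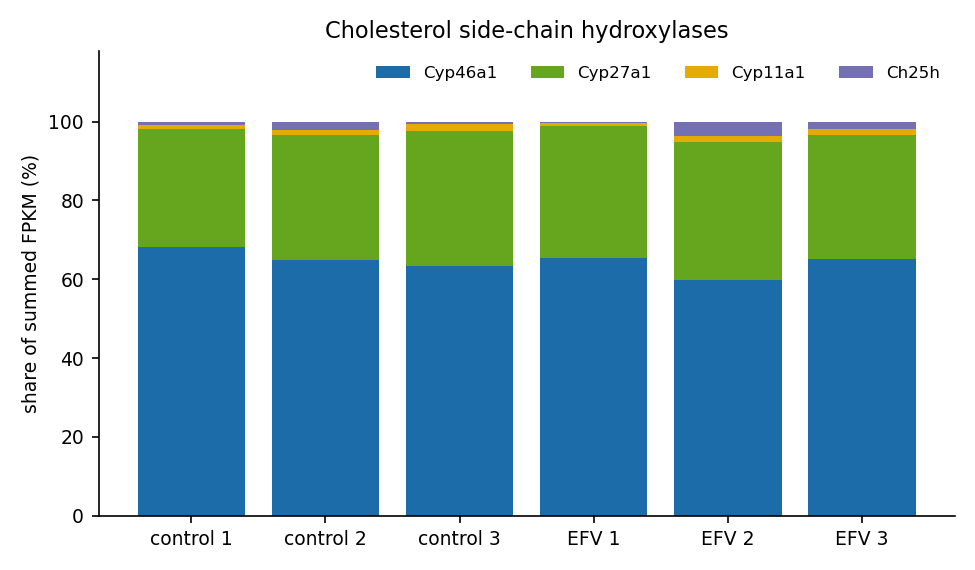
Share in percent (y axis) of the summed FPKM of Cyp46a1, Cyp27a1, Cyp11a1 and Ch25h taken by each gene in every library (x axis), with no error bars since each bar is 1 library. Cyp46a1 holds 59.8% to 68.1% and Cyp27a1 30.1% to 34.9% of the sum, with no separation of the groups.

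The comparison of EFV-treated with control 5XFAD mice asked whether EFV treatment went along with other RNA levels of these genes. None of the 9 genes tested passed the threshold, and the estimated differences were small for the abundant ones: the 95% interval of the log2 fold change lay within -0.13 to 0.20 for Por, Hsd3b7 and Fdxr and ran from -0.08 to 0.30 for Cyp46a1. Genes with at least 10 counts in 3 or more libraries were tested by the quasi-likelihood test of edgeR, and Ch25h, with 1 to 13 counts per library, did not reach this minimum. At a BH-adjusted p of 0.05, 0 of the 9 genes were called, against 0% of all 15537 genes tested by edgeR. At an unadjusted p of 0.05, 0 of 9 passed, against 3.04% (472) of all genes, 1.49% on the higher and 1.55% on the lower side after EFV. By DESeq2, 11 of all genes and 0 of these 9 were called at an adjusted p of 0.05, and the 9 also held 0 genes at an unadjusted p of 0.05. Of the 9 genes, the log2 fold change was above 0 for 5 and below 0 for 4, with a median of 0.05 beside 0.00121 for all genes tested. The scaled counts, set relative to library size (CPM), of both groups did not overlap for 2 of 9 genes, Cyp27a1 and Cyp7b1, against 8.14% of all genes tested.

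**Figure D4:**
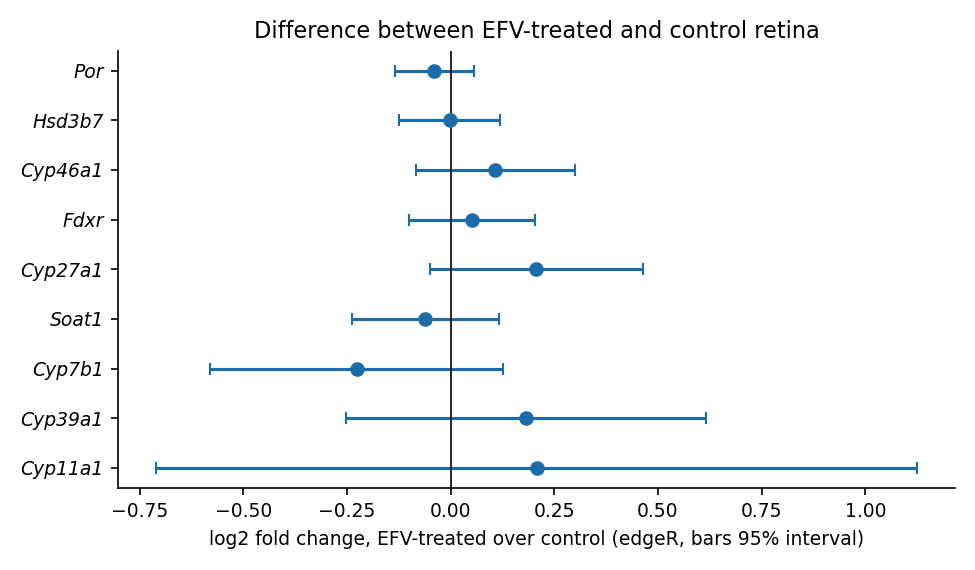
Log2 fold change of the 9 genes tested, EFV-treated over control (x axis), with the edgeR estimate as a point and its 95% interval as a bar, and the genes ordered from top to bottom by mean FPKM (y axis). All 9 intervals include 0, from the narrow one of Por (-0.13 to 0.06) to the wide one of Cyp11a1 (-0.71 to 1.12).

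Cyp46a1 (Entrez 13116, chr12:108334268-108362234, plus strand), the gene of the enzyme that EFV binds, was at 7.27, 6.49 and 6.72 FPKM in controls 1 to 3 and at 7.23, 6.91 and 8.20 FPKM in EFV 1 to 3. The groups overlapped, and EFV 3 was the highest library. The mean was 6.83 ± 0.401 FPKM in control and 7.45 ± 0.672 FPKM in EFV-treated retina (SD, n = 3). In edgeR this was a log2 fold change of 0.11 (SE 0.08, unadjusted p = 0.236, adjusted p = 0.999), that is 7.74% higher with a 95% interval from -5.65% to 23.04%. The counts behind it were 318 to 414 per library. Its coefficient of variation within groups was 6.96%, beside 5.26% from counting alone and a median of 7.41% over the 3433 genes with 200 to 600 counts on average. Without EFV 3 the log2 fold change was 0.04, without control 2 it was 0.08 and without control 3 it was 0.09. It was 0.15 without control 1, 0.13 without EFV 1 and 0.15 without EFV 2.

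Cyp27a1 (Entrez 104086, chr1:74713148-74737897, plus strand), the mitochondrial hydroxylase found in many tissues, gave 3.22, 3.18 and 3.65 FPKM in the controls and 3.71, 4.03 and 3.99 FPKM in the EFV libraries. Every EFV library was above every control library, a separation in this direction that 3.95% of all genes tested showed. The group means were 3.35 ± 0.261 and 3.91 ± 0.174 FPKM (SD, n = 3). By edgeR the log2 fold change was 0.21 (SE 0.11, 95% interval -0.05 to 0.46, unadjusted p = 0.103, adjusted p = 0.999), or 15.4% higher. With limma on log2(FPKM + 0.1) it was 0.22 with an unadjusted p of 0.0414 and an adjusted p of 0.999, so an unadjusted p of 0.05 was passed on this scale and not on counts. Control 2 had the lowest RPE marker sum, and the log2 fold change without it was 0.18 (edgeR, unadjusted p = 0.230). Without control 3, the library with lens markers, it was 0.27 (edgeR, unadjusted p = 0.0591). The RPE marker Rpe65 also had every EFV library above every control library. Lrat, Best1, Ttr and Rgr overlapped between the groups, as did the RPE marker sum (44.9 FPKM in control 1, 41.2 FPKM in EFV 1). The part of RPE RNA in the Cyp27a1 level was not tested.

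Cyp11a1 (Entrez 13070, chr9:57998024-58027031, plus strand), which starts steroid synthesis by cleaving the side chain, was near the limit of detection. Its counts were 7, 9 and 12 in the controls and 7, 13 and 13 in the EFV libraries, or 0.10, 0.14 and 0.18 FPKM against 0.10, 0.20 and 0.20 FPKM. The groups shared their lowest value. The summed counts of 28 and 33, scaled by depth, gave a ratio of 1.17 with a 95% interval of 0.685 to 2.01 for counting error only, and edgeR gave a log2 fold change of 0.21 (SE 0.41, adjusted p = 0.999). The estimate moved with the library left out, from 0.02 without control 1 to 0.45 without EFV 1. It was 0.21 without control 2, 0.42 without control 3, 0.06 without EFV 2 and 0.07 without EFV 3. A difference smaller than this counting interval was not detectable at this depth. The RefSeq start of Cyp11a1 lies upstream of the GENCODE start at position 58006411, across the non-coding gene Gm17322 (chr9:57998041-58007451), so reads of both could be counted together.

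Ch25h (Entrez 12642, chr19:34473783-34475148, minus strand), the hydroxylase that macrophages induce on activation, had 3, 6 and 2 counts in the controls and 1, 13 and 7 counts in the EFV libraries. These are levels of 0.09, 0.20 and 0.06 FPKM and of 0.03, 0.41 and 0.22 FPKM. The lowest and the highest of all 6 libraries were both EFV libraries. The summed counts were 11 (95% Poisson interval 5.49 to 19.7) and 21 (13 to 32.1), a ratio of 1.89 with an interval of 0.872 to 4.35 for counting error only. Its coefficient of variation within groups was 84.8% where counting alone gives 43.3%. When no minimum of counts was set, edgeR gave a log2 fold change of 0.88 (SE 0.81, unadjusted p = 0.299). Microglial markers summed to 6.05 to 7.32 FPKM in control and 6.32 to 7.23 FPKM in EFV-treated retina. Within this sum, Aif1 was lower in every EFV library (0.25 to 0.35 FPKM) than in the controls (0.40 to 0.73 FPKM). Cx3cr1 was higher (1.13 to 1.22 against 1.05 to 1.09 FPKM), and Csf1r, P2ry12 and Tmem119 overlapped between the groups. On scaled CPM, 8.14% of all genes tested had groups apart, so such a separation is not particular to these markers.

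Of the enzymes that act on oxysterols, neither Cyp7b1 nor Cyp39a1 passed the test, and their estimates lay on opposite sides of 0. Cyp7b1 (Entrez 13123, chr3:18071944-18243890, minus strand), the oxysterol hydroxylase that acts on the products of Cyp27a1 and Ch25h, was at 1.83, 1.88 and 2.10 FPKM in the controls and at 1.84, 1.46 and 1.73 FPKM in the EFV libraries. On FPKM control 1 and EFV 1 overlapped, and on scaled CPM they were apart by a margin of 3.854 against 3.847. Cyp7b1 had a log2 fold change of -0.23 (SE 0.16, 95% interval -0.58 to 0.13, edgeR, unadjusted p = 0.181, adjusted p = 0.999). Without control 3 it was -0.17, and without control 2 it was -0.24. Counts ran from 75 to 108 per library, so that counting alone gives a coefficient of variation of 10.4%, beside 9.07% measured within groups.

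Cyp39a1 (Entrez 56050, chr17:43667372-43751431, plus strand), which hydroxylates the product of CYP46A1, stood at 0.92, 0.95 and 1.35 FPKM in the controls. The EFV libraries were at 1.16, 1.17 and 1.36 FPKM. Control 3 lay with EFV 3 at the top, and controls 1 and 2 lay below all others. The estimated log2 fold change was 0.18 (SE 0.19, 95% interval -0.25 to 0.62, edgeR, adjusted p = 0.999). Without control 3 the estimate was 0.38 (edgeR, unadjusted p = 0.0673), and without control 2 it was 0.11. Control 3 is the library with 538.0 FPKM of lens markers, and the part of lens RNA in the Cyp39a1 level was not tested.

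For Hsd3b7, the levels were 24.89, 23.21 and 21.78 FPKM in the controls and 22.82, 23.22 and 24.51 FPKM in the EFV libraries. The controls held both the highest and the lowest value. The log2 fold change was -0.00275 (SE 0.05, 95% interval -0.12 to 0.12, edgeR, adjusted p = 0.999), and its sign changed with the scaling and with the library left out. With Hsd3b7 and Setd1a counted as 1 gene, the log2 fold change was -0.02 (SE 0.05, 95% interval -0.15 to 0.10, edgeR, adjusted p = 0.999), and for Setd1a alone it was -0.05 (SE 0.09).

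Soat1 (Entrez 20652, chr1:156428108-156474328, minus strand), which esterifies cholesterol in the endoplasmic reticulum, varied little. Its levels were 2.64, 2.41 and 2.60 FPKM in the controls and 2.41, 2.52 and 2.49 FPKM in the EFV libraries, all of the latter within the control range. Soat1 had a log2 fold change of -0.06 (SE 0.08, 95% interval -0.24 to 0.12, edgeR, adjusted p = 0.999). It was -0.10 without control 2 and -0.05 without control 3. The ratio of Soat1 to Cyp46a1, which sets esterification beside hydroxylation, was 0.374 ± 0.0121 in control and 0.334 ± 0.0305 in EFV-treated retina (SD, n = 3; exact permutation p = 0.2). This ratio uses FPKM as deposited, at a Soat1 length of 0.572 times that of its matched transcript. The expected counts of Soat1 were not whole numbers in most libraries, such as 267.18 in control 2 and 284.44 in EFV 3. Some of its reads were thus divided as well, and with which gene was not determined.

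Por (Entrez 18984, chr5:135670040-135735326, plus strand) had the narrowest interval of the 9 genes. It was at 31.89, 30.80 and 33.61 FPKM in the controls and at 31.51, 31.46 and 31.74 FPKM in the EFV libraries, which lay within the control range. The log2 fold change was -0.04 (SE 0.04, 95% interval -0.13 to 0.06, edgeR, adjusted p = 0.999). It was -0.06 without control 2 and -0.00662 without control 3. The level of Por relative to the summed FPKM of the 3 microsomal P450 genes Cyp46a1, Cyp7b1 and Cyp39a1 was 3.26 ± 0.0705 in control and 3.06 ± 0.244 in EFV-treated retina (SD, n = 3; exact permutation p = 0.2).

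Fdxr, the first enzyme of mitochondrial electron transfer to P450s, was at 6.96, 6.29 and 6.81 FPKM in the controls and at 7.15, 6.36 and 8.39 FPKM in the EFV libraries. EFV 3 was the highest library, as for Cyp46a1. The deposited length of Fdxr changed from library to library, which enters FPKM and not the counts. The FPKM mean was 9.17% higher in EFV-treated than in control retina as deposited and 4.83% higher when 1 length was used for all libraries, with group means of 6.85 ± 0.0775 and 7.18 ± 0.638 (SD, n = 3). In edgeR the log2 fold change was 0.05 (SE 0.07, 95% interval -0.10 to 0.20, adjusted p = 0.999). It was -0.02 without EFV 3, 0.05 without control 2 and 0.06 without control 3. Without control 1 it was 0.04, without EFV 1 0.09 and without EFV 2 0.08. The ratio of Fdxr to the summed FPKM of Cyp27a1 and Cyp11a1 was 1.92 ± 0.161 in control and 1.79 ± 0.259 in EFV-treated retina (SD, n = 3; exact permutation p = 0.6). This ratio uses FPKM as deposited, at an Fdxr length of 2.46 to 2.81 times that of its matched transcript.

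Other genes of the same pathways were read from the same fit in 4 lists that also hold some of the 10 genes, and none passed an adjusted or an unadjusted p of 0.05 by edgeR. Of 35 further genes listed, 31 were found in the data and 20 were tested, of which 6 had a log2 fold change above 0 and 14 below 0, with a median of -0.04 beside 0.00121 for all genes. The groups overlapped for all 20 of them, where 8.14% of all genes tested had groups apart and 3.04% had an unadjusted p of 0.05 or less. All 7 P450 redox partners found were tested, 2 above and 5 below 0 with a median of -0.04. After Por, Cyb5b, a cytochrome b5 of the outer mitochondrial membrane, and Cyb5a, its microsomal counterpart, were level at a mean of 20.9 FPKM each. Cyb5b was at 21.3 ± 1.25 FPKM in control and 20.6 ± 0.203 FPKM in EFV-treated retina (log2 fold change -0.07).

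Among the oxysterol and bile acid enzymes downstream, 7 of 14 found were tested, 3 above and 4 below 0 with a median of -0.00275. Scp2, a sterol carrier and peroxisomal thiolase, was the most abundant at 50.2 ± 1.62 and 51.8 ± 1.41 FPKM (log2 fold change 0.03). For the entry into steroid synthesis, 8 of 9 genes found were tested, 4 above and 4 below 0 with a median of -0.00624. Hsd17b10, a mitochondrial dehydrogenase, was at 12.3 ± 0.537 and 12.1 ± 1.13 FPKM (log2 fold change -0.04), and Stard3, a late endosomal cholesterol transporter, was at 11.2 ± 0.232 and 11.4 ± 1.04 FPKM (log2 fold change 0.01). Among genes that form or hydrolyse cholesteryl esters, 7 of 10 were tested, 1 above and 6 below 0 with a median of -0.06. Nceh1 and Lipa, which encode a neutral and a lysosomal cholesteryl ester hydrolase, had mean levels of 13.5 and 5.46 FPKM and log2 fold changes of -0.04 and 0.03.

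**Figure D5:**
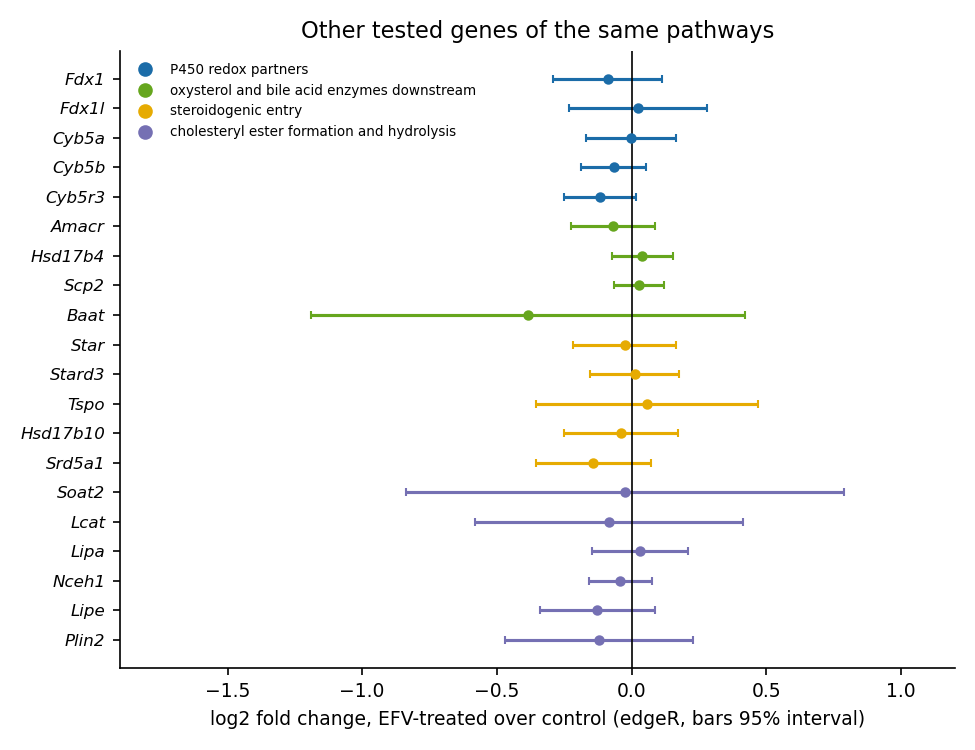
Log2 fold change, EFV-treated over control (x axis), of the 20 further pathway genes tested (y axis), with the edgeR estimate as a point, its 95% interval as a bar and a colour for each list. All intervals include 0, and 14 of the 20 estimates lie below 0.

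The genes whose level ran most like that of Cyp46a1 over the 6 libraries were Zfp346, Fbxo16 and Jagn1, with a Pearson r of 0.997, 0.989 and 0.987 on log2 CPM. They were the closest of 13827 genes compared, 180 of which had an r above 0.9, and the points share their libraries and depth. Zfp346, a zinc finger gene, was at 10.80, 9.89 and 10.29 FPKM in the controls and at 10.86, 10.44 and 11.93 FPKM in the EFV libraries, with EFV 3 highest and control 2 lowest as for Cyp46a1.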

How the data were processed

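RNAseq data of 6 libraries (3 control, 3 EFV) were used. Per the labels, poly-A RNA was sequenced, and the submitters' processing notes name HISAT2 2.0.4, Bowtie2 2.2.5, RSEM 1.2.12 and mm10. The expected counts per gene were estimated by the authors with RSEM and deposited without normalization. The FPKM values were made by the authors from these counts, the estimated gene length and the library total. Strandedness and the annotation release are not given in the sources used here. Lengths that include transcripts assembled by the authors affect FPKM but not the test on counts.

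Expected counts were rounded and tested with edgeR 4.0.16 (R 4.3.3; quasi-likelihood, TMM, group as the only term, two-sided, BH over 15537 genes with at least 10 counts in 3 or more of 6 libraries). Of these, 1160 were BGI_novel regions. At 23455167 to 24590278 counts per library, counting error weighs most on genes near 10 counts. The biological coefficient of variation was 0.0983. Intervals on summed counts cover counting error only. The scaling was varied (total counts, upper quartile, RLE), as was the filter (none, or at least 1 CPM in 3 libraries), and DESeq2 1.42.0 was run beside limma 3.58.1 on log2(FPKM + 0.1) and log2(FPKM + 1) (which understates changes of low genes). Further fits had the replicate number as a block or left out 1 library. After the data were seen, Hsd3b7 and Setd1a as 1 gene and reference transcript lengths were added. The study applied a threshold based on the Poisson distribution, which leaves out the spread between pools and was not used here. The paper gives a daily EFV dose other than that of the labels; the label's dose is printed. The methods were tested on simulated data.

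Gene positions and promoters were taken from RefSeq (GRCm38.p6) and transcript lengths from GENCODE transcripts with a RefSeq match. Named were the 10 genes, the list genes with an unadjusted p of 0.05 or less (none), at most the 2 most abundant genes of each list, the 3 genes most like Cyp46a1, and markers. Setd1a, Gm49388, Gm17322, Cyb5a and Cyb5r3 were named after their values or positions were seen. The genes and lists were chosen with earlier results of these data known. The sum of 1 further marker list is not reported here.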

Additional observations from a re-analysis of the deposited data

How the results depend on the processing

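The limits are 3 pools per group, few counts for Ch25h and Cyp11a1, and the division of reads between Hsd3b7 and Setd1a. Further limits are the divided reads of Soat1 and the differing RPE and lens markers of control 2 and control 3. Of the 16 alternatives (15 for Cyp11a1), all kept the direction for Cyp46a1 (log2 fold change 0.04 to 0.15), Cyp27a1 (0.17 to 0.27), Cyp11a1 (0.02 to 0.45), Cyp7b1 (-0.30 to -0.14), Cyp39a1 (0.08 to 0.38), Soat1 and Por, and no alternative called any of these genes at an adjusted p of 0.05. Among all genes DESeq2 called 11 at an adjusted p of 0.05 and 270 at an unadjusted p of 0.05, where edgeR had 0 and 472. On 5 libraries, with any 1 removed, edgeR called 0 to 1 genes, the 1 without EFV replicate 1, and 389 to 576 at an unadjusted p of 0.05. At an unadjusted p of 0.05, 1 of the 9 genes (Cyp27a1) passed in limma with either pseudocount. Of the pathway genes 0 to 1 passed with a library left out, the 1 being Cyb5r3 without EFV replicate 3 (log2 fold change -0.16). The estimate of Hsd3b7 turned positive with upper quartile scaling (0.000134), total counts (0.0127), limma (0.0152 and 0.0146), and without control replicate 1 (0.0412), control replicate 2 (0.000918) or EFV replicate 1 (0.0203), within a range of -0.0507 (without control replicate 3) to 0.0412. Fdxr turned to -0.0181 without EFV replicate 3 (range -0.0181 to 0.0859 over the libraries left out), and limma on FPKM, which takes in its changing length, gave 0.117 and 0.105. With 1 length for all libraries the Fdxr mean was 4.83% higher in EFV-treated retina, beside 9.17% as deposited. Limma was not run at 1 length, and the cause of these shifts was not tested. The count of neighbouring genes apart in level was 7 to 8.

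By a criterion of 0.1 for every pair, libraries of the same replicate number were not taken as pairs (correlations of 0.125, 0.0832 and 0.0992). Libraries of different numbers correlated at -0.101 to -0.00629, so each library correlated best with its own number. The values were centred within each group first, so the negative correlations follow in part from the positive ones. What the numbers share was not tested. With the replicate block, 0 genes were called and 520 had an unadjusted p of 0.05 or less, 0 of the 9 genes and 0 pathway genes among them at either limit. The log2 fold change with the block was 0.11 for Cyp46a1, 0.21 for Cyp27a1, 0.20 for Cyp11a1, -0.23 for Cyp7b1, 0.20 for Cyp39a1, -0.00147 for Hsd3b7, -0.06 for Soat1, -0.04 for Por and 0.05 for Fdxr.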
